A study of Homo sapiens with 5 samples.

Results

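The peaks described here lie on the short arms and centromeres of chromosomes 13, 14, 15, 21 and 22, the human acrocentric chromosomes, whose centromere sits close to one end. A peak was taken when its midpoint fell within the first 19.5 Mb of chromosomes 13 and 14, 20.5 Mb of chromosome 15, 14 Mb of chromosome 21 or 17.5 Mb of chromosome 22 (build GRCh38). These 5 windows held 4331 of the 55034 peaks in the 3 deposited lists. They came from chromatin immunoprecipitation and sequencing (ChIP-seq) for histone H3 trimethylated at lysine 9 (H3K9me3) in HEK293T, a cell line from human embryonic kidney, with antibody ab8898 on formaldehyde-crosslinked, sonicated chromatin. The EV group is labelled only with those letters, read here as an empty vector, and had 1389 window peaks. The KD group is labelled KD, and the series design names a knockdown of KCNQ1OT1_K. KCNQ1OT1 is a long non-coding RNA of an imprinted domain, and the added letter is not explained there. The KD list had 1245 window peaks. The third list, with 1697 window peaks, carries no genotype in its name. It was assigned to no sample, although a WT library is also labelled, and it is only described. Each H3K9me3 group had 1 library, and input libraries are labelled for EV and WT but not for KD. There is therefore no replicate check, no test between conditions was possible, and intervals cover counting error over peaks only. The read depth of each list is unknown, so a change of the mark and a difference in depth or antibody yield between the EV and KD libraries cannot be told apart. The labels name no knockdown method, clone or vector, and peak lists hold no RNA level, so the knockdown itself was not checked.

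H3K9me3 is placed by histone methyltransferases such as SUV39H1, SUV39H2 and SETDB1 and is bound by HP1 proteins, which hold chromatin in a silent, compact state. It is a hallmark of the satellite repeats in and around centromeres. The acrocentric short arms carry satellite DNA, segmental duplications and the ribosomal RNA genes, which form the nucleolus and of which some copies are active and others silent in the same cell. In the reference, the alpha satellite of chromosomes 13 and 21, and that of chromosomes 14 and 22, are nearly the same sequence, and the ribosomal gene copies resemble one another closely. A read from such sequence can match several places, and the sources used here do not say how the authors treated these reads. The values below are therefore those of the reference positions to which reads were assigned.

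Most of the covered length lay in gene-free sequence, and no genome was used here. Sequence could be read for the promoters of annotated genes and for microRNAs. The promoter table of RefSeq (GRCh38.p14) had 89 entries, for 77 genes, in the windows, each holding 250 bases before and 50 after a gene's start. Peaks touched 8 of these entries in EV, 4 in KD and 10 in the third list. LOC105379428 in EV and LOC105379203 in the third list are counted more than once. The share touched over all 35116 promoter entries was not computed, so these counts cannot be compared with promoters elsewhere. The promoters of 7 genes were covered over all 300 bases in at least 1 list, and 6 of them are shown, to let a reader see which kinds of start carried the mark. They are written 5′ to 3′ on the gene's strand, with every CG dinucleotide, the site of DNA methylation, in capitals. CG reads the same on both strands.
LINC01667, chr21:9821012-9821311, minus strand: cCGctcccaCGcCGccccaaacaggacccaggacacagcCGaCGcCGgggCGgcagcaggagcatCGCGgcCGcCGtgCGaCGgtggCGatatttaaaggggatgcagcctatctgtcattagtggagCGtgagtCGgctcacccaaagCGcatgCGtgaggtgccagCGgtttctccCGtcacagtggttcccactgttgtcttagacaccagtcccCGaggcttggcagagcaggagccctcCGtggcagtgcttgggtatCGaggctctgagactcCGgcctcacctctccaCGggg
LOC105372733, chr21:10119441-10119740, minus strand: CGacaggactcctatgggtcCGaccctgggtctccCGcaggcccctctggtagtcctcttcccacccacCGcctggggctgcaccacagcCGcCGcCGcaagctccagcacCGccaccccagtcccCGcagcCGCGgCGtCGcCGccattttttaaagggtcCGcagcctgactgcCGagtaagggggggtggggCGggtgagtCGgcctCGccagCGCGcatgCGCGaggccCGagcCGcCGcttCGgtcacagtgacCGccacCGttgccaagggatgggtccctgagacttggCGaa
LOC105379418, chr22:10741842-10742141, plus strand: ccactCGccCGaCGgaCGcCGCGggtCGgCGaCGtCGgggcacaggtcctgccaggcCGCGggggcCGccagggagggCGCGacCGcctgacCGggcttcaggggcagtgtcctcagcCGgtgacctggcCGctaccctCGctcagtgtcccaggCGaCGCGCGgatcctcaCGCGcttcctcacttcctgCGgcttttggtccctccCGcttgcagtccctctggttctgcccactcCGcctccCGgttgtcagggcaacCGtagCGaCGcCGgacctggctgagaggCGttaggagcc
LOC105379428, chr22:12815744-12816043, minus strand: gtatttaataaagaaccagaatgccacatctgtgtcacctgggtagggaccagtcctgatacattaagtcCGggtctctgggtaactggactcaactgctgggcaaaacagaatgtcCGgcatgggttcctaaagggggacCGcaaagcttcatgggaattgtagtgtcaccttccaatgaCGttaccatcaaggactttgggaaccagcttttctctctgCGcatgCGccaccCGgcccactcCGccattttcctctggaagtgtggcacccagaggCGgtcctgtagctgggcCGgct
LOC107985482, chr21:13705631-13705930, plus strand: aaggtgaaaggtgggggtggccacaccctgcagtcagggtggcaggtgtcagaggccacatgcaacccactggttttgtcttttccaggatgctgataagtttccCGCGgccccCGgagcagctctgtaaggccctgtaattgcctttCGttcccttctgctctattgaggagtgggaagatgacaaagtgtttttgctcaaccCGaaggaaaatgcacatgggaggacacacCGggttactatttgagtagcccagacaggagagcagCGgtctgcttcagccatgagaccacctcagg
TPTE, chr21:10521333-10521632, plus strand: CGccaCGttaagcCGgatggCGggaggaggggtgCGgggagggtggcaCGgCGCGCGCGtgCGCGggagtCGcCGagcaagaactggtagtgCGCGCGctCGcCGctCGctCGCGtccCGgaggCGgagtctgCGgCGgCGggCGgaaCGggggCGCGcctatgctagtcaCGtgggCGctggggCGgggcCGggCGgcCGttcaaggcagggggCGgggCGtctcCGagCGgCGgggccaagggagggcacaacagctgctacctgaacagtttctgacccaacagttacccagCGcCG

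LINC01667 and LOC105372733, both non-coding genes of the chromosome 21 short arm, had their whole promoter under a peak in all 3 lists. They hold 25 and 30 CG, against a median of 12 in the window promoters and 14 over all 35116 promoter entries. LOC105379418 on the chromosome 22 short arm, with 35 CG, was covered over all 300 bases in EV and KD and over 151 bases in the third list. The seventh, LINC01666, with 13 CG, was covered fully in EV and KD and over 92 bases in the third list. The promoters of LOC105379428 and LOC107985482 were covered in EV alone, and they hold 10 and 7 CG. The TPTE gene is known for expression in testis. Its promoter has 44 CG, a number that 4.19% of all promoter entries reach, and it was covered over its whole length in the third list and over 0 bases in EV and KD. LOC107987323, with 14 CG, was touched in EV over 17 bases and not in KD, so CG number did not order the promoters by whether KD had a peak.

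The EV list had 1389 peaks over 6.22 Mb in the windows and the KD list 1245 peaks over 2.73 Mb. By number the KD/EV ratio was thus 0.896 (exact 95% interval 0.830 to 0.968), and by covered length it was 0.439, so KD peaks were nearly as many and much narrower. The lower number turned into a higher one when only peaks with a fold enrichment of at least 3 were kept (1.08), when EV was limited to as many peaks as KD (1.35), and when peaks within 3 kb were joined (1.13). The lower covered length held in each of these settings. Limiting EV to the number of KD peaks drops weak EV peaks only, which can only raise a KD/EV ratio. The third list had 1697 peaks over 5.64 Mb. The windows held 5.63% of the EV peaks on assembled chromosomes, 9.84% of the KD peaks and 11.8% of the third list's.

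The higher share in KD went with a KD/EV number that was far lower elsewhere. On the remaining sequence of the same 5 chromosomes this ratio was 0.314 (0.288 to 0.343) and that of covered length 0.232. On the rest of the other chromosomes they were 0.368 (0.357 to 0.379) and 0.314. In gene-free stretches of at least 2 Mb on the other chromosomes, which hold most of their centromeres, they were 0.927 (0.892 to 0.964) and 0.494. The interval of the windows overlaps that of the other gene-free stretches and lies above those of the gene-bearing remainder. Single stretches varied widely, from 0.221 to 2.61 for number and from 0.143 to 0.728 for covered length over 20 stretches, and the windows lay within both ranges. The lowest number ratio was that of a stretch near the tip of chromosome Y. That stretch is no centromere and counts as gene-free only by the gene table used. The next was 0.271 on chromosome 6, and the windows lay within the range without chromosome Y too.

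All 5 windows had less covered length in KD. Chromosome 13 had 209 peaks over 1.18 Mb in EV and 236 over 0.554 Mb in KD. Chromosome 14 had 252 over 1.33 Mb and 253 over 0.568 Mb. Chromosome 21 had 365 over 1.62 Mb and 325 over 0.808 Mb. These windows thus had less covered length in KD at a like number of peaks. Chromosome 22 had 367 peaks over 1.53 Mb in EV and 310 over 0.620 Mb in KD. Chromosome 15 had 196 over 0.557 Mb and 121 over 0.183 Mb, and it stood lowest in both lists and in both ratios. Its KD/EV number was 0.617 (0.488 to 0.778), below the intervals of chromosomes 13 (0.933 to 1.37) and 14 (0.840 to 1.20). Its interval overlaps those of chromosomes 21 (0.764 to 1.04) and 22 (0.724 to 0.985). By covered length, KD/EV was lowest on chromosome 15 (0.329) and highest on chromosome 21 (0.499).

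**Figure D1:**
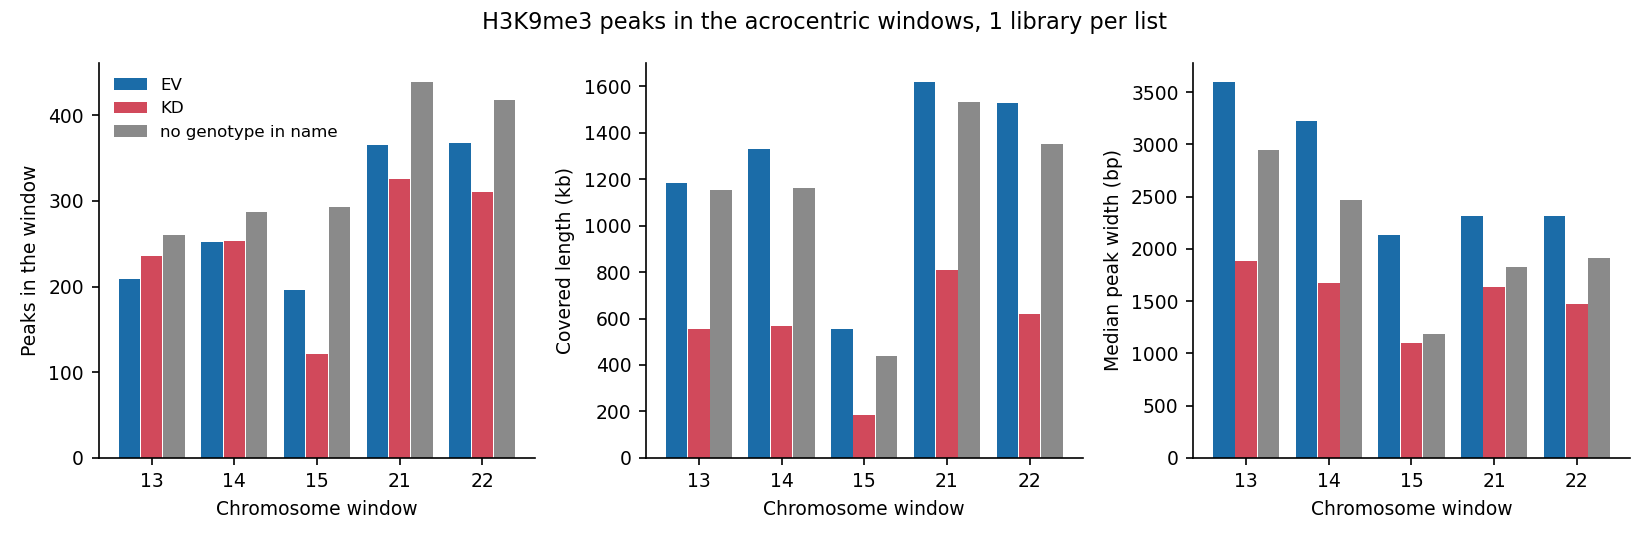
Bars give, for each chromosome window and list, the number of H3K9me3 peaks, the covered length in kb and the median peak width in bp (1 library per list, no error bars). Peak numbers of EV and KD are close on chromosomes 13, 14 and 21, while covered length is lower in KD in all 5 windows, and chromosome 15 has the least covered length in each list.

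The difference lay in the wide peaks. The median width in the windows was 2563 bp in EV, 1588 bp in KD and 1861 bp in the third list. Outside the windows the medians were 1070, 967 and 1095 bp, so window peaks were wider in every list, and the gap between EV and KD was larger inside. In the gene-free stretches of other chromosomes the medians were 2540, 1557 and 1652 bp, so neither trait was particular to the windows. Peaks of at least 5 kb numbered 387 in EV (27.9% of its window peaks), 86 in KD (6.91%) and 319 in the third list (18.8%). At 10 kb or more the counts were 144, 10 and 112. In the gene-free stretches of other chromosomes, peaks of at least 5 kb made up 22.7% in EV, 8.12% in KD and 12.1% in the third list.

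Wide EV domains were often met by several KD peaks. The 144 EV peaks of 10 kb or more included 141 that overlapped a KD peak and 121 (84.0%) that overlapped 2 or more. KD peaks covered 44.5% of the bases of these domains. Outside the windows 82.9% of such peaks met 2 or more, so the pattern was not particular to the acrocentric chromosomes. Over all widths, 209 EV peaks (15%, 13.2 to 17.0) met 2 or more KD peaks, against a background of 4.32% over all EV peaks and 14.7% in the other gene-free stretches. The widest EV peak of the windows, chr14:17974961-18022893, spanned 47933 bp, and 8 KD peaks covered 37.3% of it. On chromosome 22 the widest EV peak spanned 42310 bp and met 7 KD peaks over 41.5% of its length. On chromosome 21 the widest spanned 41899 bp and met 5 KD peaks over 50.7%. On chromosome 13 it spanned 33515 bp and met 6 KD peaks over 46.2%. The widest EV peak on chromosome 15 was only 14820 bp and met 3 KD peaks over 49.9%. In all 5 windows, then, the largest EV domain was found in KD as shorter pieces. Such division was not particular to KD. Of the 144 EV peaks, 110 (76.4%) met 2 or more peaks of the third list, which covered 69.0% of the bases of all 144. The widest EV peak met 11 of its peaks over 37.5%. In turn, 77 of the third list's 112 window peaks of 10 kb or more (68.8%) met 2 or more EV peaks.

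**Figure D2:**
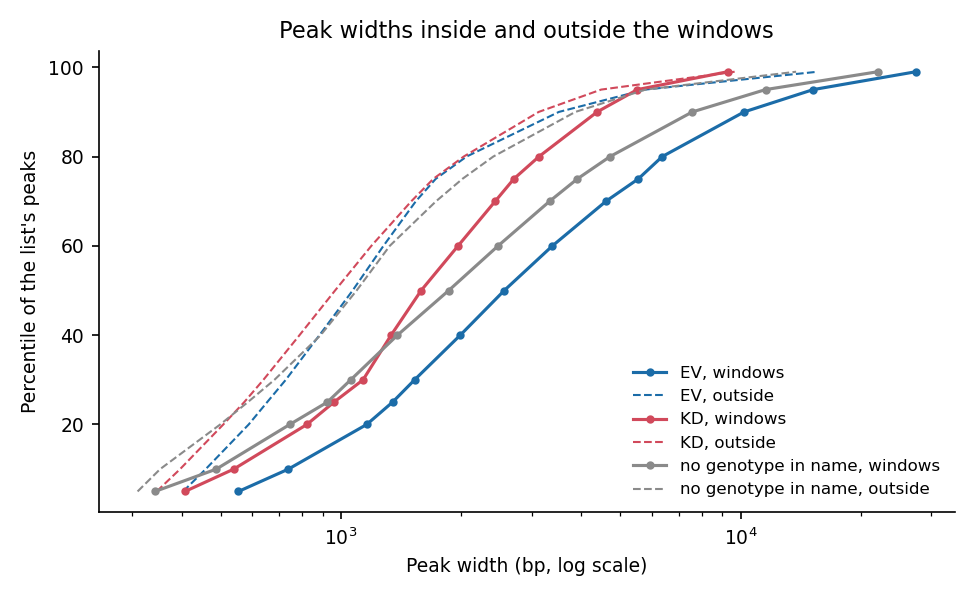
Lines give the width in bp (log scale) at percentiles 5 to 99 of each list, solid for peaks in the windows and dashed for peaks outside. EV runs to the right of KD at every percentile in the windows (medians of 2563 and 1588 bp), and the dashed lines lie closer together.

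Along the windows the signal was concentrated in the gene-free stretches that hold the centromeres. They contained 5.35 Mb of the EV coverage (86.1% of that in the windows), 2.31 Mb of the KD coverage (84.4%) and 4.89 Mb of the third list's (86.7%). Here KD had as many peaks as EV, 1027 against 987, a ratio of 1.04 (0.953 to 1.14), over a covered ratio of 0.431. On the gene-bearing short-arm side the numbers were 225 in EV and 132 in KD (ratio 0.587, 0.470 to 0.731), over 476 and 298 kb. Nearly all came from chromosomes 21 (135 and 80) and 22 (85 and 51), with 5 and 1 on chromosome 14. On chromosomes 13 and 15 the gene-free stretch begins at position 1, so they have no short-arm side here. On the long-arm side they were 177 and 86 (0.486, 0.371 to 0.632), over 390 and 129 kb. Chromosome 15 departed from this, with 170 EV and 106 KD peaks in its gene-free stretch (0.624, 0.485 to 0.799), while the other chromosomes had ratios of 1.08 to 1.18. Pooled peak number was thus lower in KD on both sides of the stretch, and covered length was lower in all 3 segments.

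Within the centromeric stretch, 4 of the 5 chromosomes looked alike. The stretch was counted from the first peak of any list on chromosomes 13 and 15, and over its whole length on 14, 21 and 22. EV covered 56.4% of it on chromosome 13, 53.9% on 14, 53.2% on 21 and 48.7% on 22. KD covered 26.3%, 23.2%, 23.7% and 20.9% of the same stretches. Chromosome 15 stood apart with 17.2% in EV, 5.42% in KD and 12.3% in the third list. On the 4 like chromosomes the third list covered between 46.2% and 55.0%, close to EV.

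That closeness was not even along the stretch. The stretch was split, after its values were seen, into the last 6 bins of 100 kb with at least 30% EV coverage and the earlier ones. In the earlier bins of chromosome 13 the median coverage was 63.0% in EV, 34.7% in KD and 77.5% in the third list. In the last 6 bins it was 63.8%, 23% and 37.2%. Chromosomes 14, 21 and 22 showed the same step. The median of the third list went from 71.4% to 41.7% on chromosome 14, from 73.8% to 38.8% on 21 and from 73.9% to 41.8% on 22. EV stayed between 64.4% and 69.5% in both parts of these 3 stretches, and KD went from between 32.1% and 34.5% to between 21.5% and 24.9%. On each of the 4 chromosomes, KD and the third list thus had a lower median on the side nearer the long arm. EV was lower there on chromosome 14 alone, with 67.9% and 65.8%. The alpha satellite of chromosomes 13 and 21, and that of 14 and 22, is nearly the same, and reads may be shared between them. The 4 chromosomes are therefore not separate observations of this step.

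**Figure D3:**
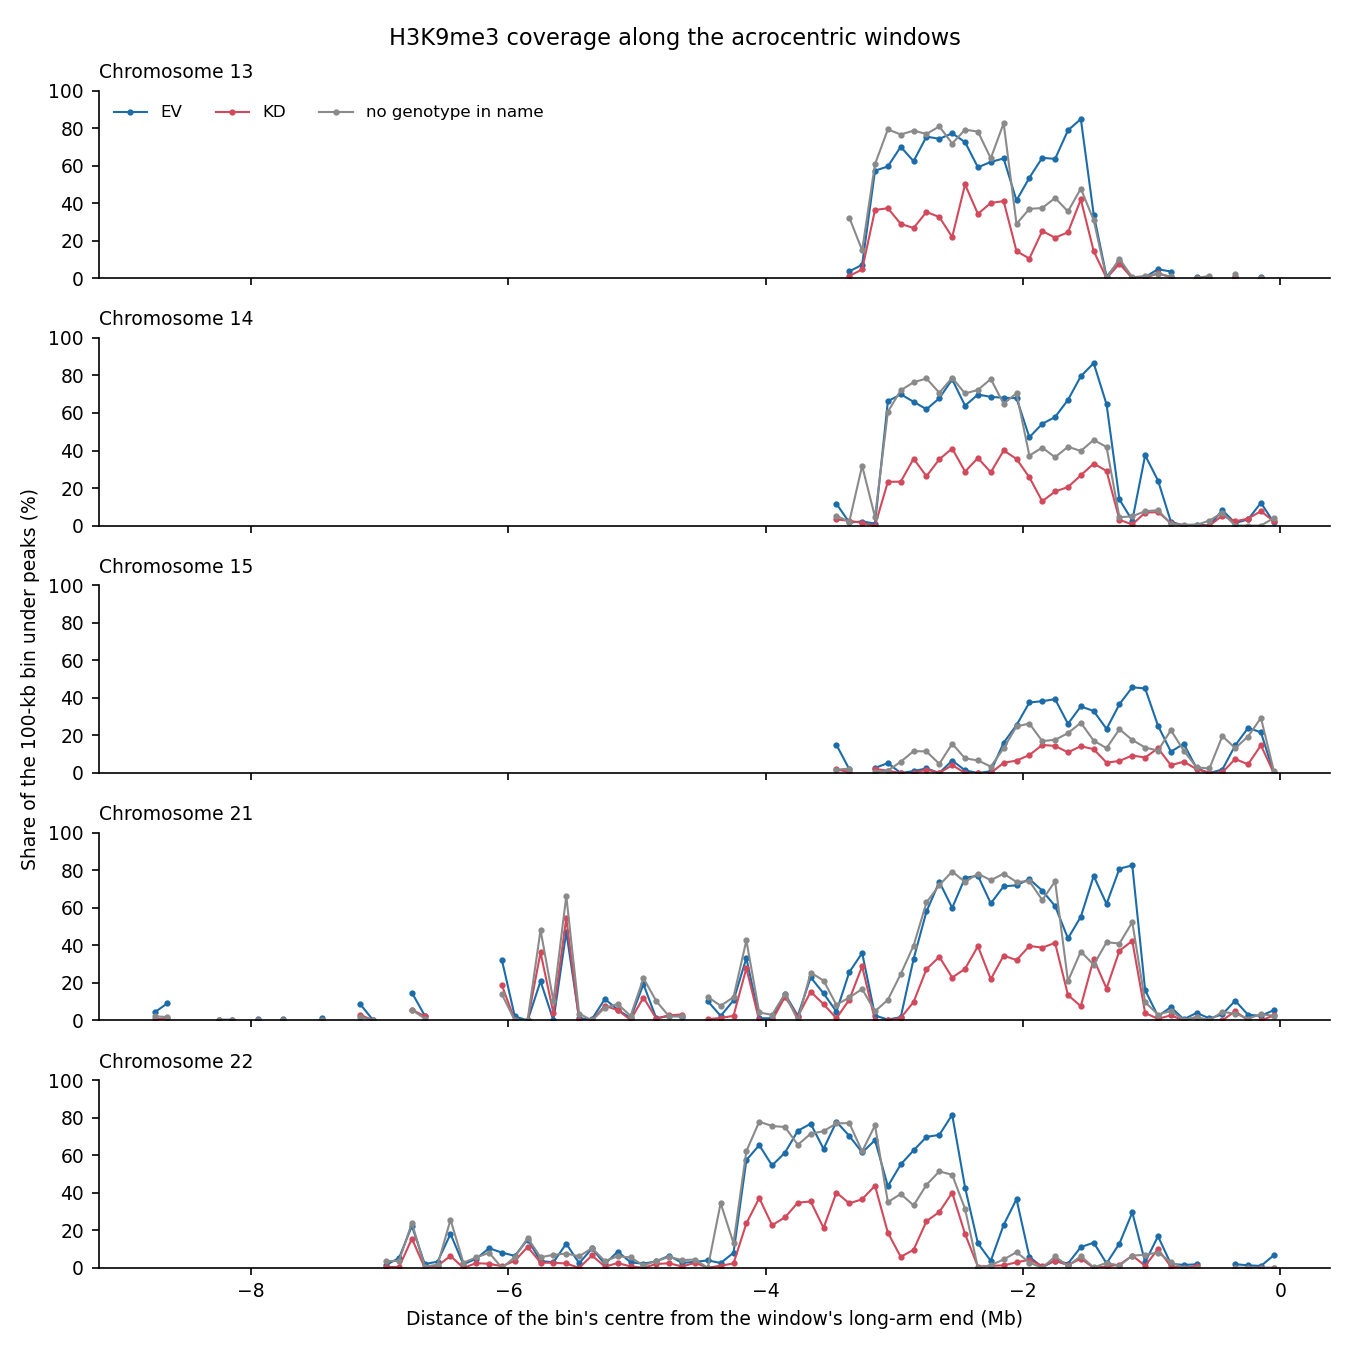
Each panel gives the share of every 100-kb bin under peaks (%) for the 3 lists, against the distance of the bin's centre from the window's long-arm end (Mb); bins without a peak in any list are blank. A block covered over 60% or more in many EV bins marks the centromeric stretch of chromosomes 13, 14, 21 and 22, KD runs lower through it, and chromosome 15 has no such block.

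Of 227 bins with a peak in EV or KD, 216 (95.2%) had fewer covered bases in KD, against 90.1% over all chromosomes, and 11 (4.85%) had more, against 9.9%. Bins with more covered bases in KD were thus less frequent than over all chromosomes. The 3 bins with the largest excess in KD were neighbours on the chromosome 21 short arm, between positions 8200001 and 8500000. Their coverage was 20.9%, 0% and 47.2% in EV and 36.2%, 3.84% and 54.5% in KD. These are the bins that hold the ribosomal RNA genes.

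The reference places 3 copies of the 45S ribosomal RNA gene in this block, RNA45SN2, RNA45SN3 and RNA45SN1, from position 8205988 to 8446572. Each is transcribed by RNA polymerase I as a precursor that is cut into the 18S, 5.8S and 28S RNAs of the ribosome. The block had 11 peaks over 48.8 kb in EV, 13 over 67.8 kb in KD and 13 over 97.0 kb in the third list. Its KD/EV covered length was 1.39, beside 0.621 on the remaining short-arm side of chromosome 21. Without the widest window peak of each list the ratio fell to 0.865, because the widest KD peak, chr21:8222497-8248130, lies in the block. That peak of 25634 bp spans the spacer behind RNA45SN2 and CDC27P9, a pseudogene of the cell cycle gene CDC27, and EV had 3 peaks over 69.9% of it. Over this spacer both lists had peaks, and they differed in how it was divided.

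Over the 3 gene bodies themselves, coverage was 9.98% in EV, 28.2% in KD and 69.3% in the third list. The KD/EV covered length was 2.83 there, and it was 4.26 at a −log10 q of at least 2 and 8.93 with equal peak numbers. The last setting drops weak EV peaks only, so it could only raise the ratio. RNA45SN1 was covered over 19.8% in EV and 42.8% in KD, RNA45SN2 over 10.1% and 27.1%, and RNA45SN3 over 0% and 14.8%. The order of the copies was the same in both lists and in the third, with 79.1%, 67.0% and 61.9%. Among the 12 ribosomal RNA genes, peaks lay over 5 in EV, 6 in KD and 12 in the third list, and 6 had a larger covered share in KD and 1 a smaller. These genes are not separate, since the 18S, 5.8S and 28S genes lie within the 45S genes and share their peaks. Over all genes, 13.2% had a peak in EV, 6.15% in KD and 4.6% in the third list, and of those with a peak in EV or KD 13% had a larger share in KD. RNA18SN1 went from 47.2% in EV to 92.5% in KD and RNA18SN2 from 0% to 28.8%. The exception was RNA28SN2, with 26.6% in EV and 0% in KD. No 5.8S copy had a peak in EV or KD, and all 3 were fully covered in the third list. Since reads from near-identical copies cannot be assigned to a single one, differences between copies are uncertain.

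In KD each copy had a peak across the 45S start. It ran from 2034 bp before to 2016 bp after the first base of RNA45SN2, from 841 bp before to 1967 bp after that of RNA45SN3, and from 959 bp before to 584 bp after that of RNA45SN1. EV had none at RNA45SN2 and RNA45SN3, and a peak of 380 bp just inside RNA45SN1. The third list had a peak over the start of all 3. The 5 strongest window peaks of KD with no EV partner included 3 in this block, at RNA45SN2, RNA45SN3 and RNA18SN2. The EV and KD peaks over the 45S bodies had low fold enrichment, the authors' ratio of signal to the caller's background. It was 1.34 to 1.56 in EV, 1.62 to 1.99 in KD and 2.08 to 4.60 in the third list, against window medians of 3.65, 3.83 and 3.75. With a fold of at least 3 required, no base of the 45S bodies remained in EV or KD. A fold of this size depends on the control library, and no KD input is labelled, so the part of the control in this difference was not tested.

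**Figure D4:**
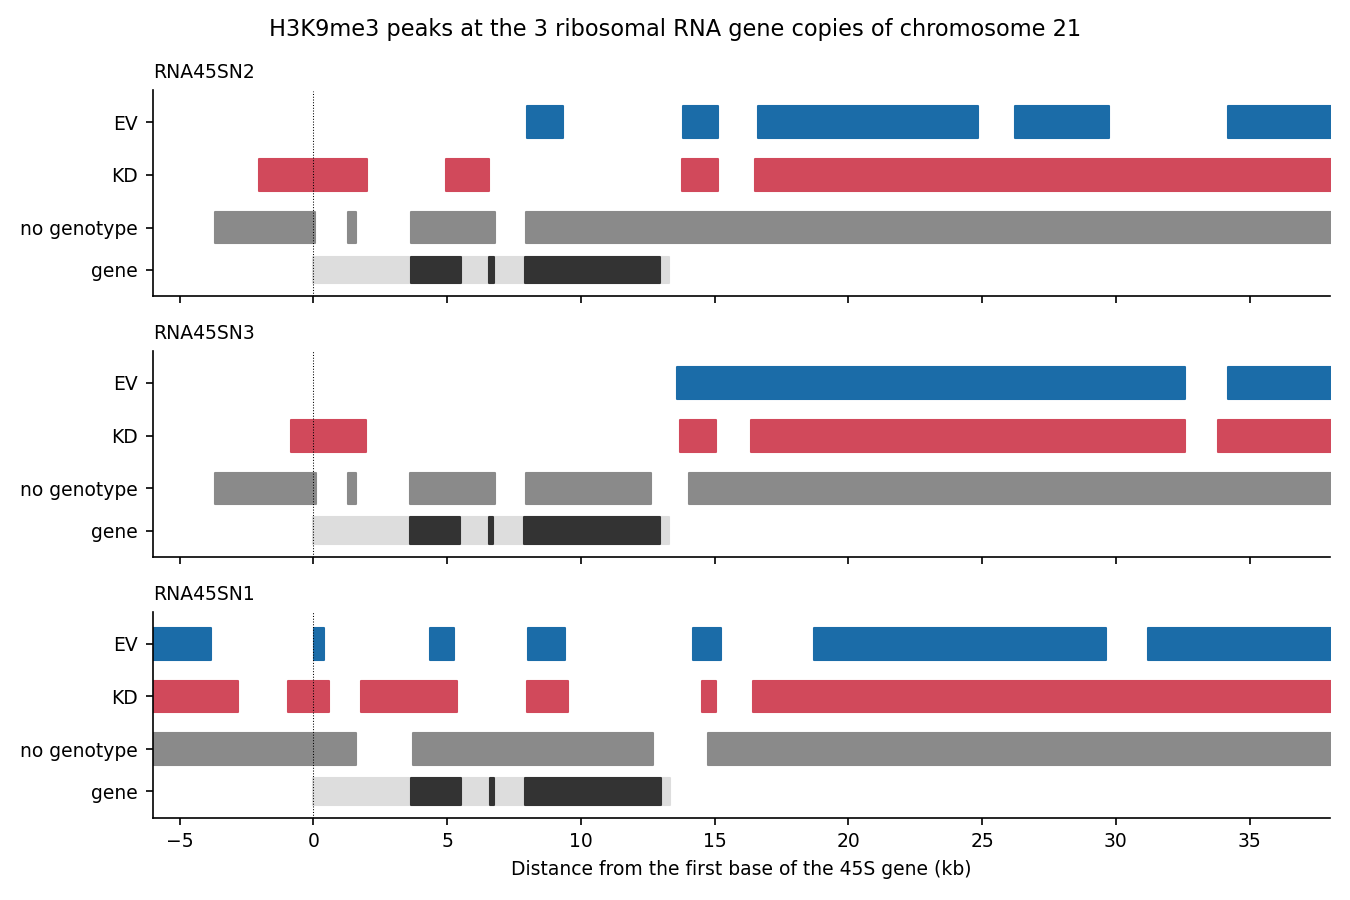
Coloured bars mark peaks of each list (named at left) against the distance in kb from the first base of each 45S gene; the light bar below is the 45S gene and the dark parts are its 18S, 5.8S and 28S genes. KD has a peak across the start of all 3 copies, EV has a short one just inside RNA45SN1 only, and all lists cover the spacer to the right of each gene.

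The stretch before each 45S start also holds a copy of MIR6724, a microRNA gene. MIR6724-1, MIR6724-3 and MIR6724-4 end 581, 581 and 600 bp before the next 45S gene, and all were covered fully in KD and the third list and not at all in EV. MIR6724-2, which lies 139438 bp before the next 45S gene, was covered in the third list alone. The RefSeq table holds the hairpins of MIR6724-2 and MIR6724-4, which are the same 92 bases, and both give the mature microRNA hsa-miR-6724-5p. It is shown here, with its seed (bases 2 to 8) in capitals, above the MIR6724-4 hairpin, chr21:8432530-8432621, plus strand. They are shown because this sequence lies under the KD peaks at the 45S starts.
hsa-miR-6724-5p: cUGGGCCCgcggcgggcgugggg
MIR6724-4 hairpin: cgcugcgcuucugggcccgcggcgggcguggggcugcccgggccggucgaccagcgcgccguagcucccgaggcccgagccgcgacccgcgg

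EV peaks of the windows were often found in KD, and KD peaks nearly always in EV. At an overlap of at least 1 bp, 851 of 1389 EV peaks (61.3%, 58.6 to 63.8) were found in KD, against 37.7% over all EV peaks and 64.2% in the gene-free stretches of other chromosomes. In the other direction, 1178 of 1245 KD peaks (94.6%, 93.2 to 95.8) were found in EV, against 87.7% over all KD peaks and 97.1% in those stretches. In both directions the windows lay slightly below the other gene-free stretches and above the list as a whole. By bases, 40.3% of the EV coverage was under KD peaks and 91.6% of the KD coverage under EV peaks. By chromosome, KD held 70.8% of the EV peaks on 13, 66.7% on 14, 59.7% on 21, 57.2% on 22 and 54.6% on 15. The share of KD peaks found in EV stayed between 92.9% and 97.9%.

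Strong and wide EV peaks were found more often in KD. The deposited −log10 p had a median of 5.64 for EV peaks in the windows and 4.62 outside. Between 4 and 5 on this scale, 43.4% of window peaks (37.3 to 49.7) were found in KD against 22% (20.9 to 23.3) outside. Between 6 and 8 the shares were 86% (81.3 to 89.9) and 55.6% (53.7 to 57.5). The other gene-free stretches gave 38.7% (35.5 to 42.0) and 82.1% (79.3 to 84.7), whose intervals overlap those of the windows. At like width the windows and the rest were close. Under 1 kb, 20.2% of window peaks and 18.5% of those outside were found, and between 1 and 2 kb 40.8% and 39.0%. Between 2 and 5 kb the shares were 71.6% and 64.1%, between 5 and 10 kb 87.2% and 87.0%, and at 10 kb or more 97.9% and 98.5%. Apart from the class of 2 to 5 kb, window peaks were thus found about as often as all peaks of their width outside. In the gene-free stretches of other chromosomes the shares were 23.1%, 47.2%, 75.6%, 91.2% and 99.1%. Each was above that of the windows, with overlapping intervals.

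**Figure D5:**
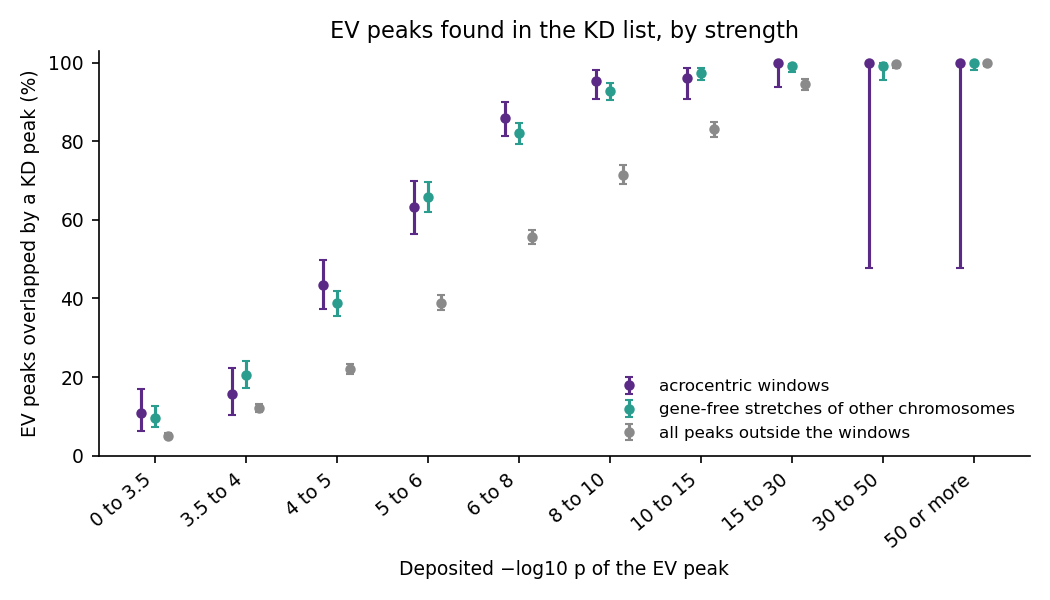
Points give the share of EV peaks overlapped by a KD peak (%) in classes of the EV peak's deposited −log10 p, with exact 95% intervals (counting error over peaks). Windows and gene-free stretches of other chromosomes run together, from about 10% to 100%, and above all peaks outside the windows up to the class of 10 to 15.

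Joined over the 3 lists, the window peaks formed 1764 separate regions. Of these, 609 (34.5%) held peaks of all 3 lists, with a median width of 6680 bp and 75.3% of the joined length. EV alone accounted for 290 regions, the third list alone for 521 and KD alone for 37. EV with the third list had 184, EV with KD 104 and KD with the third list 19. Regions in a single list were short, with medians of 1087, 901 and 814 bp for EV, the third list and KD. The third list covered 71.3% of EV window peaks and 83.5% of KD window peaks by at least 1 bp, against 24.7% and 45.5% over all peaks of those lists. In turn, EV met 67.6% of the third list's window peaks, against 50.2% of all its peaks, and KD met 49.4%, against 35.6%.

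Genes in the windows were marked more often than genes elsewhere. Of 384 genes, 92 carried an EV peak (24%, against 13.2% of all genes), 69 a KD peak (18%, against 6.15%) and 100 a peak of the third list (26%, against 4.6%). Peaks covered at least 10% of the gene body in 53, 39 and 66 of the 384, against 2.66%, 1.27% and 0.972% of all genes. Most are pseudogenes or non-coding. Among the 105 with a peak in EV or KD, 28 (26.7%) had a larger covered share in KD, against 13% over all genes, and 10 of these 28 are ribosomal RNA or microRNA genes of the chromosome 21 block. Another 75 had a smaller share and 2 the same.

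Protein-coding genes were covered over small parts of their bodies. Of 36, 7 carried an EV peak (19.4%, against 13.2% of all genes) and 4 a KD peak (11.1%, against 6.15%), and 1 and 2 of these were covered over at least 10%. The share over all protein-coding genes was not computed, so these shares cannot be compared with protein-coding genes elsewhere. LOC124903442 on chromosome 15 was covered over 32.8% in EV, 23.2% in KD and 32.5% in the third list. LOC101927345 on the chromosome 21 short arm was covered over 2.18% in EV and 13.4% in KD and had no peak in the third list, and it alone of the 7 had a larger share in KD. TPTE went from 5.57% in EV to 1.32% in KD. XKR3, of the XK family of membrane proteins, went from 5.95% to 1.45%. ADA2, an adenosine deaminase, had 4.54% in EV and none in KD, and CECR2, a subunit of a chromatin remodelling complex, had 4.04% and none. LOC102724652, which the reference places on the short arm as a copy of the lens crystallin gene CRYAA, had 1.65% and none. These 3 had no covered base in KD, and for each the EV share was small.

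Some of the listed gene families had few peaks or none in EV and KD. With so few members, no difference from the 13.2% and 6.15% of all genes can be read. None of the 4 POTE genes, primate-specific genes with ankyrin repeats, had a peak in EV or KD, and all 4 had one in the third list, over 0.929% to 4.96% of the gene. None of the 3 olfactory receptor genes of the OR11H group had a peak in any list. Of 9 copies of chromosome 21 genes that the reference places on the short arm, CRYAA2 (LOC102724652) alone had one, in EV. Reads may be shared between these copies and the genes they resemble, so their lack of peaks is uncertain. TUBA3C, a tubulin gene, had none, and no gene of the GOLGA family lay in the windows. Of 8 genes at the long-arm edge of the chromosome 22 window, 3 carried a peak in EV, 1 in KD and none in the third list.

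Other families had peaks in both EV and KD, several over a smaller share in KD. All 3 DUXAP pseudogenes had a peak in both lists, with DUXAP10 covered over 12.0% in EV, 10.7% in KD and 0% in the third list. FAM230C, a non-coding gene on chromosome 13, was covered over 12.1%, 9.55% and 13.6%. TEKT4P2, a pseudogene of a sperm tail protein gene, went from 15.9% to 5.55%, and BAGE2, of a family of tumour antigens, from 9.23% to 4.28%. Of the 8 ANKRD genes 3 were touched in EV and 1 in KD, and of the 2 FRG1 copies 1 in each. The 7 DUX4L pseudogenes, related to the repeat-encoded transcription factor gene DUX4, were chosen after their values were seen. Among them 5 were touched in EV, 4 in KD and 6 in the third list, and 3 had a larger and 3 a smaller share in KD. Of all genes, 13.2%, 6.15% and 4.6% had a peak in these lists. Because of that choice, no difference from all genes can be read.

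A few genes outside these families were also chosen after their values were seen. EIF3FP1, a pseudogene of a translation initiation factor, was covered over 100% in EV, 85.1% in KD and 100% in the third list. LINC01667 was covered over 31.9%, 21.6% and 38.1%. ABCD1P4, a pseudogene of a peroxisomal transporter gene, was covered over 99.5% in EV, 59.0% in KD and 7.95% in the third list. RHPN2P1 went from 32.7% to 8.09%. The FEM1A, LONRF2 and SNX18 pseudogenes, which lie on chromosomes 13 and 21, had a peak in 5 of 8 in EV and 0 of 8 in KD. In the third list it was 1 of 8, SNX18P11, which was covered fully. Of all genes, 13.2%, 6.15% and 4.6% had a peak in these lists. The group was chosen on its values, so no difference between lists or from all genes can be read. The genes named here thus ranged from near-full KD coverage to EV peaks with no KD partner.

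The strongest EV peak of the windows, chr13:18211771-18214996, lay in FAM230C, with a −log10 p of 219 at a fold of 8.30. KD had a peak over 98.1% of it, with a −log10 p of 58.1 at a fold of 6.14 in its own list. The third list had one with a −log10 p of 9.30 at a fold of 4.34. The highest fold of EV was 20.4, at chr21:10269953-10272439, and that of KD was 13.2 at the same place, over 83.3% of the EV peak. No annotated gene lies there, and the third list had no peak. At LINC01667 the EV peak spanned 28681 bp, with a fold of 5.97 and a −log10 p of 85.8. There 2 KD peaks covered 94.2% of it, and a peak of the third list spanned the whole. All 10 EV window peaks with a −log10 p of 30 or more had a KD partner, as did 397 of 398 outside the windows between 30 and 50 and all 487 at 50 or more.

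Peaks with no partner were weaker. The strongest EV window peak that KD lacked, chr13:16668042-16669516, had a fold of 5.66 and a −log10 p of 11.9. The next 4 lay on chromosomes 14, 21, 15 and 22 with −log10 p values of 10.1 to 11.2. Of these 5, all but the chromosome 21 peak, chr21:13207674-13208263, were overlapped in the third list. Outside the ribosomal block, the strongest KD peak that EV lacked lay in BAGE2 at chr21:10479965-10480355, was 391 bp wide with a fold of 5.34, and was in no other list.

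The chromosome 22 window end falls inside an EV peak, chr22:17495874-17501305, with a −log10 p of 8.60, and no other end falls inside an EV or KD peak. The last EV peak inside each window was 483 to 5432 bp wide with a fold of 2.53 to 4.38, and the first outside was 361 to 1844 bp wide with 2.29 to 3.12. In KD the last peaks inside were 339 to 2646 bp wide with a fold of 3.14 to 4.95, and the first outside 789 to 3728 bp with 2.77 to 4.64.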

How the data were processed

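H3K9me3 ChIP-seq libraries of HEK293T cells (EV, KD and WT, 1 each) and 2 inputs are labelled, and 3 lists of broad peaks were used. Reads were aligned with Bowtie2 and peaks called with MACS2 on GRCh38, per the submitters' processing notes. The sources used here give no calling options, controls, filters or treatment of reads that match several places. Each peak comes with the authors' deposited fold enrichment, a ratio to the caller's background, and their −log10 p and q. They were used within their own list only, except where the same fold or −log10 q minimum was set for all lists. The lowest −log10 q is 1.00. The EV and KD lists were matched by name, and the third list to no sample.

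Window membership followed peak midpoints. Covered length is the merged length of a list's peaks, and overlap needed 1 bp. Gene-free stretches of at least 2 Mb and genes came from RefSeq tables (GRCh38.p14, 58961 genes on assembled chromosomes), and a gene belongs to a window by its midpoint. Its covered share is the share of its body under peaks. No genome was used, so the planned repeat, GC and motif shares of peaks were not run. Promoter strand was checked on opposite genes with shared bases. Intervals are exact Clopper-Pearson 95% intervals (scipy 1.17.1), and those of ratios come from the binomial share. Software was Python 3.11.15, numpy 2.4.6, pandas 2.3.3 and matplotlib 3.10.9. The overlap code was tested on simulated data: it found 100% of 10000 placed overlaps and none of 500 distant pairs, and 10500 counts equalled those of bedtools 2.31.1.

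Named are, per window and list, the 2 widest peaks and the one with the highest fold, protein-coding genes with a peak, members of listed families, and the 5 strongest peaks lacking a partner. The text gives a selection. Members and lists were chosen with earlier results of these data known. Further genes, the 45S gene bodies and the split of the centromeric stretch were chosen after the data were seen.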

Additional observations from a re-analysis of the deposited data

How the results depend on the processing

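Results were recomputed with stricter peaks, equal peak numbers, joined peaks, touching instead of midpoint membership, without the widest peak of each list, and with each chromosome left out. The lower covered length in KD held in direction throughout, at 0.347 to 0.506. It moved to 0.347 at −log10 q of at least 2 and to 0.506 with equal peak numbers. At −log10 q of at least 2 the ratio was 0.368, 0.337, 0.217, 0.407 and 0.324 on chromosomes 13, 14, 15, 21 and 22. The KD/EV peak number reversed to 1.08 at a fold of at least 3, to 1.35 with equal numbers and to 1.13 with peaks within 3 kb joined. It was 0.672 at −log10 q of at least 2. Equal numbers dropped weak EV peaks only, which can only raise the KD/EV number and covered length. Among EV peaks, the share with a KD partner became 52.1% at −log10 q of at least 2, 67.1% at a fold of at least 3, 80.6% with equal numbers and 25% with a reciprocal overlap of 50%. Among KD peaks, the share with an EV partner became 96.5%, 88.6%, 85.8% and 27.9% in the same settings. Touching membership, removal of the widest peaks and leaving out single chromosomes kept the direction of these window results. However, the interval of the KD/EV peak number reached 1 without chromosome 15 (0.942, 0.868 to 1.02) and without chromosome 22 (0.915, 0.836 to 1.00). The cause of each shift was not tested.

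Alternatives for the ribosomal block were chosen after seeing the data. Its covered ratio of 1.39 reversed to 0.865 without the widest peak of each list, which took a peak of KD alone out of the block. Over the 45S bodies the ratio moved to 4.26 at −log10 q of at least 2 and to 8.93 with equal numbers, a setting that drops weak EV peaks only. At a fold of at least 3, EV had no base in the block and KD 42.9 kb, so no ratio was formed. No paired analysis was possible because each group has 1 library. Leaving out a replicate was not possible for the same reason. Depth is unknown, so weak and narrow peaks, which depend on it most, limit the peak numbers and the shares found.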
